A study of Homo sapiens with 47 samples.

Results

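The 10 claudin genes *CLDN1*, *CLDN3*, *CLDN4*, *CLDN5*, *CLDN6*, *CLDN7*, *CLDN9*, *CLDN10*, *CLDN11* and *CLDN12* were followed in human embryonic stem cells (hESCs) as these were turned into neuromesodermal progenitor (NMP)-like cells, pre-neural progenitors (PNPs) and neural crest (NC). The genes were taken by name, as a list of claudins quantified in each of the 47 libraries, and are 10 of the 58051 genes quantified; another 14 claudin genes were also measured. All libraries came from WA09 (H9), a single established hESC line. Undifferentiated hESCs grown in mTESR1 gave the t0 libraries. NMP-like cells were collected after 36 h in N2B27 without vitamin A, with the WNT agonist CHIR-99021 and rhFGF2. The medium also held AGN193109, an inverse agonist of the retinoic acid receptors, and the ROCK inhibitor Y-27632. The cells were then kept in the same medium and passaged every few days, and whole cultures, given as neural progenitors in the sample labels and as PNP/NC cells in the series' design, were collected at each passage from P1 to P10. At P5 and P8, TrypLE was used to detach the mesenchymal cells ahead of the epithelial ones, which gave samples enriched for NC (MES) or for PNPs (EPI); these fractions were enriched and not purified. Of the libraries, 35 were whole cultures at 12 time points and 12 were fractions. There were n = 3 independent differentiations, r1 to r3, except at P9, where r1 and r2 were analysed here. Libraries with the same number were treated as one differentiation followed through the series.

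Claudins are membrane proteins with 4 transmembrane segments that polymerise into the strands of tight junctions and set which ions and solutes pass between neighbouring epithelial cells. Some seal the space between cells, others form ion-selective pores, and their combination differs from one epithelium to another. Pluripotent stem cells form an epithelial sheet with tight junctions, and loss of claudins is a known feature of epithelial to mesenchymal transition, in which SNAI and ZEB repressors bind E-box sequences in the promoters of epithelial genes.

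The genes are given with their Ensembl identifiers and their positions in GENCODE 29 on GRCh38. *CLDN3* (ENSG00000165215, chr7:73768997-73770270, minus strand) and *CLDN4* (ENSG00000189143, chr7:73799542-73832693, plus strand) are neighbours. So are *CLDN9* (ENSG00000213937, chr16:3012456-3014505, plus strand) and *CLDN6* (ENSG00000184697, chr16:3014712-3020071, minus strand). *CLDN7* (ENSG00000181885) lies at chr17:7259903-7263983 on the minus strand and *CLDN5* (ENSG00000184113) at chr22:19523024-19527545 on the minus strand. *CLDN1* (ENSG00000163347, chr3:190305701-190322475, minus strand) and *CLDN11* (ENSG00000013297, chr3:170418865-170454733, plus strand) are both on chromosome 3 but are not neighbours. *CLDN10* (ENSG00000134873) lies at chr13:95433604-95579759 and *CLDN12* (ENSG00000157224) at chr7:90383721-90513402, both on the plus strand. The longest coding sequence annotated for each gene was taken, and these encode from 207 residues for CLDN11 to 303 for CLDN5. In global alignments of these translations the most alike pairs were CLDN6 and CLDN9, with 71.8% of alignment columns identical, and CLDN3 and CLDN4, with 66.7%. The lowest value, 16.8%, was that of CLDN5 and CLDN12, of 303 and 244 residues, over 334 columns. Columns with gaps were counted, so unequal lengths lower the value, and shorter isoforms were not compared. At the level of 75-base reads the paralogues were nevertheless distinct. None of these claudins shared a 75-base stretch with another of them, whereas 7.17% of the stretches of *CLDN7* also occurred in the overlapping gene *AC003688.1*, 16.4% of those of *CLDN11* in *AC026316.5* and 10.3% of those of *CLDN12* in *GTPBP10* and a pair of other genes. For *CLDN10*, 44.9% of the stretches matched transcripts of the opposite strand, of *DZIP1* and *KCTD18*, and reads of both strands cannot be told apart if strand was not used in counting.

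The promoter windows of 4 of the 6 claudins that were called lower at P8 than at t0 are shown, because the E-box CAGGTG is the letter string SNAI and ZEB proteins are known to bind; on the other strand it reads CACCTG. Each window runs 5′ to 3′ on the gene's strand from 250 bases before to 50 bases after the annotated start, in RefSeq sequence of GRCh38.p14, and the capitals mark the E-box in either reading. The windows are chr7:73770221-73770520 (minus strand) for *CLDN3*, chr7:73830746-73831045 (plus strand) for *CLDN4*, chr16:3018134-3018433 (minus strand) for *CLDN6* and chr17:7262429-7262728 (minus strand) for *CLDN7*.
CLDN3: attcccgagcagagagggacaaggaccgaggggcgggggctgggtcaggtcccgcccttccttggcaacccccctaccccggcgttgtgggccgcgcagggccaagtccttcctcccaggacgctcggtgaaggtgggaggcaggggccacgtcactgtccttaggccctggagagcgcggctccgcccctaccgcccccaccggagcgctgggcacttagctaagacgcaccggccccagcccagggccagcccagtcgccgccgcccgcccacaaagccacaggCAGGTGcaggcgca
CLDN4: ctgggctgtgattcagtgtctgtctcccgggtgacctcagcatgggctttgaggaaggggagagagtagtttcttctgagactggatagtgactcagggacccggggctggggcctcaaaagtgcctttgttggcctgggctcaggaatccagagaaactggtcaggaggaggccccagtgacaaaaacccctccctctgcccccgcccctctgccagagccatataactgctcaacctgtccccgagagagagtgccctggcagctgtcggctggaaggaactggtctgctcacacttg
CLDN6: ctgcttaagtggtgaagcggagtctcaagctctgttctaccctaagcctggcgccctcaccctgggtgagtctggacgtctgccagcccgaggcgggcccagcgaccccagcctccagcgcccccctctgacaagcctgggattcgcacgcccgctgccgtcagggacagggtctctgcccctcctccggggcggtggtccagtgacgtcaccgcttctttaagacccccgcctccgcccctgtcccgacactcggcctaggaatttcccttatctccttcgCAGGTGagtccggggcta
CLDN7: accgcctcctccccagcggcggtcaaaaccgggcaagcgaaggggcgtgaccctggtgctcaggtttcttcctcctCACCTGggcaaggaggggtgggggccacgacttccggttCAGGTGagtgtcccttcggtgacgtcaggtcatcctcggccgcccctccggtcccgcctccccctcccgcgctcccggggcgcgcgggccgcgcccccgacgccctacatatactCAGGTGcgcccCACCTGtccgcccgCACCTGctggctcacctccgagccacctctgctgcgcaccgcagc

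The *CLDN7* window shown held 5 such E-boxes, beginning 174, 135, 20 and 9 bases before and 5 bases after the start base. *CLDN3* held 1, beginning 36 bases after the start base, and *CLDN6* held 1, beginning 32 bases after it. None was found in the *CLDN4* window, in a second *CLDN7* window at another annotated start (chr17:7263164-7263463), or in the 2 windows each of *CLDN10* and *CLDN11*, the other claudins called lower at P8. RefSeq windows were found for 8 of the 10 claudins, 11 windows in all, and only the 3 windows just named, out of those 11, held the string; *CLDN5* and *CLDN9* had no window in the table. Of the 35116 windows of all genes, 20.6% held at least 1 copy, 3.49% at least 2 and 0.094% at least 5. These are matches of letters and not measured binding sites.

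Each library held between 13029491 and 64082859 expected counts, with a median of 47292229. Levels are given in TPM (transcript abundance scaled for transcript length and for the total of a library), and a count of 3 in a library was taken as the smallest the depth can show. The labels were checked against marker genes. The summed TPM of 5 pluripotency genes was 3807 to 4238 at t0, that of 5 NMP genes rose from 0.93 to 1.04 at t0 to 205 to 1538 at 36 h, and that of 7 mesenchymal NC genes was 72.2 to 246 in the P5 EPI and 399 to 560 in the P5 MES samples. At P8 the ranges of the NC genes overlapped, at 89.1 to 697 in EPI and 247 to 978 in MES. Several r1 libraries stood apart from the others of their passage, among them those of P1 and P10 by marker genes and those of P1, P2, P3 and P10 by their counts over all genes. By principal components the paper placed r1 of P4 with earlier passages and r2 and r3 of P4 with later ones. *POU5F1* was at 863 TPM at P1 in r1 against 18.7 and 5.07 in r2 and r3 and at 23.7 TPM at P2 against 0.39 and 0.51. *SOX2* was at 214 TPM at P10 in r1 against 0.50 and 0.71. At P4 *SOX10* was lowest in r1, at 0.40 TPM, but r2 and r3 also differed from each other, at 2.41 and 10.8 TPM. The names PNP and NC did not cover all that was expressed at P1, where 4 paraxial mesoderm genes summed to 7.57 to 363 TPM. The 7 NC genes summed to 68.0 to 150 TPM at P1 and 28.9 to 31.1 TPM at t0, although *SOX10* among them was at most 0.50 TPM at P1. A list of 7 epithelial PNP genes summed to 53.2 to 1092 TPM at P1 and 584 to 679 TPM at t0. Comparisons that change without the r1 libraries are given both ways. Since whole cultures were lysed, a lower level can come from fewer cells of a type or from less RNA per cell, and these cannot be told apart.

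The summed mRNA of the 10 listed claudins was smaller, and made up of other members of the list, at the end of the series than at its start. At t0 the 10 genes summed to 662 to 739 TPM and *CLDN6* alone held 71.6 to 74.0% of it. At P5 the sum was 61.8 to 78.9 TPM, of which *CLDN12* held 48.4 to 68.6% and *CLDN11* 17.8 to 45.9%, and *CLDN6* held 1.7 to 4.42%. At P10 the sum was 27.7 to 51.0 TPM, and *CLDN12* held 65.4 to 90.4%. The ranges of the sum at t0, P5 and P10 did not overlap.

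**Figure D1:**
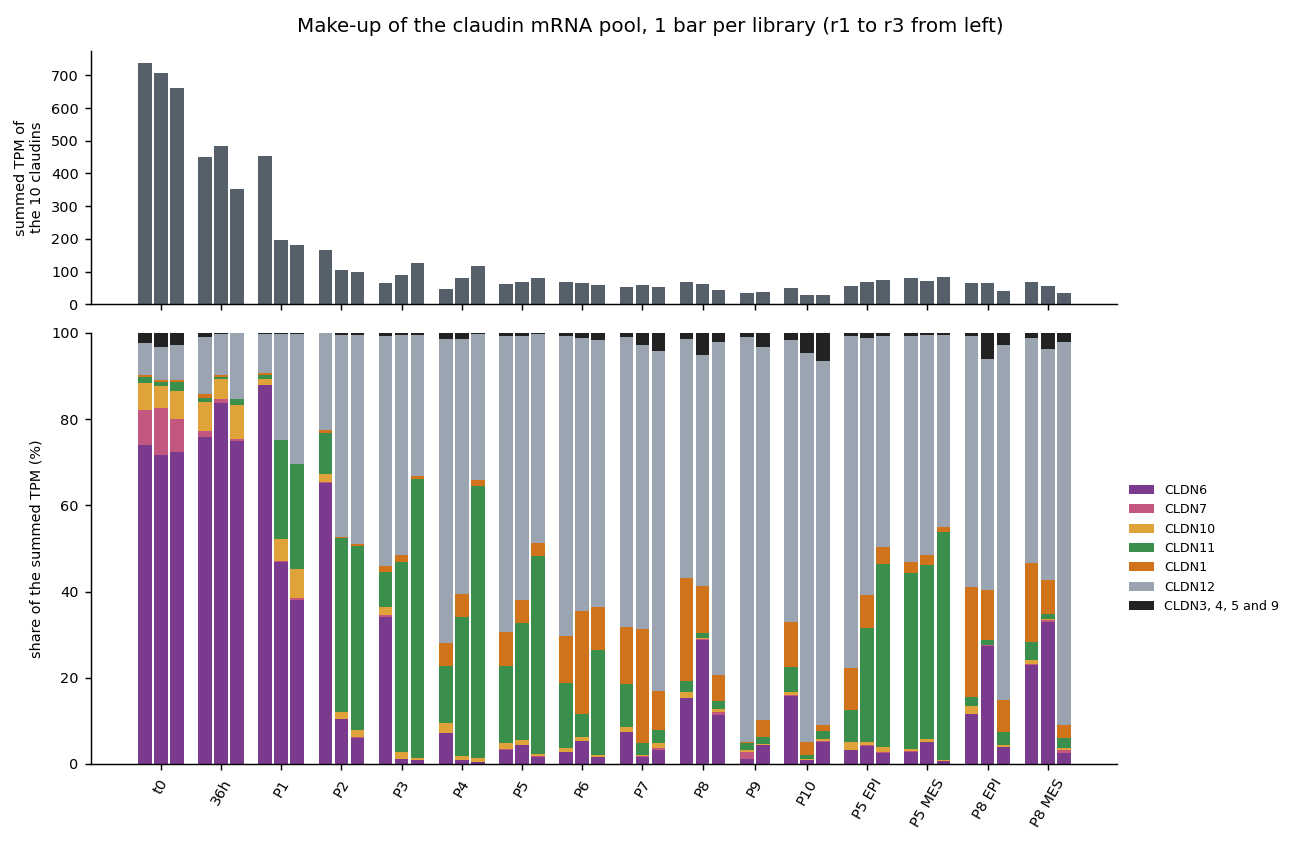
Summed TPM of the 10 claudins (upper panel, bars from 0) and the share of each claudin in that sum in percent (lower panel), with 1 bar per library and the differentiations r1 to r3 from left to right within a condition (r1 and r2 at P9). *CLDN6* made up 71.6 to 74.0% of the sum at t0, *CLDN11* reached 63.1% and 64.7% of it at its highest in P4 and P3, and *CLDN12* held most of it from P6 on.

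**Figure D2:**
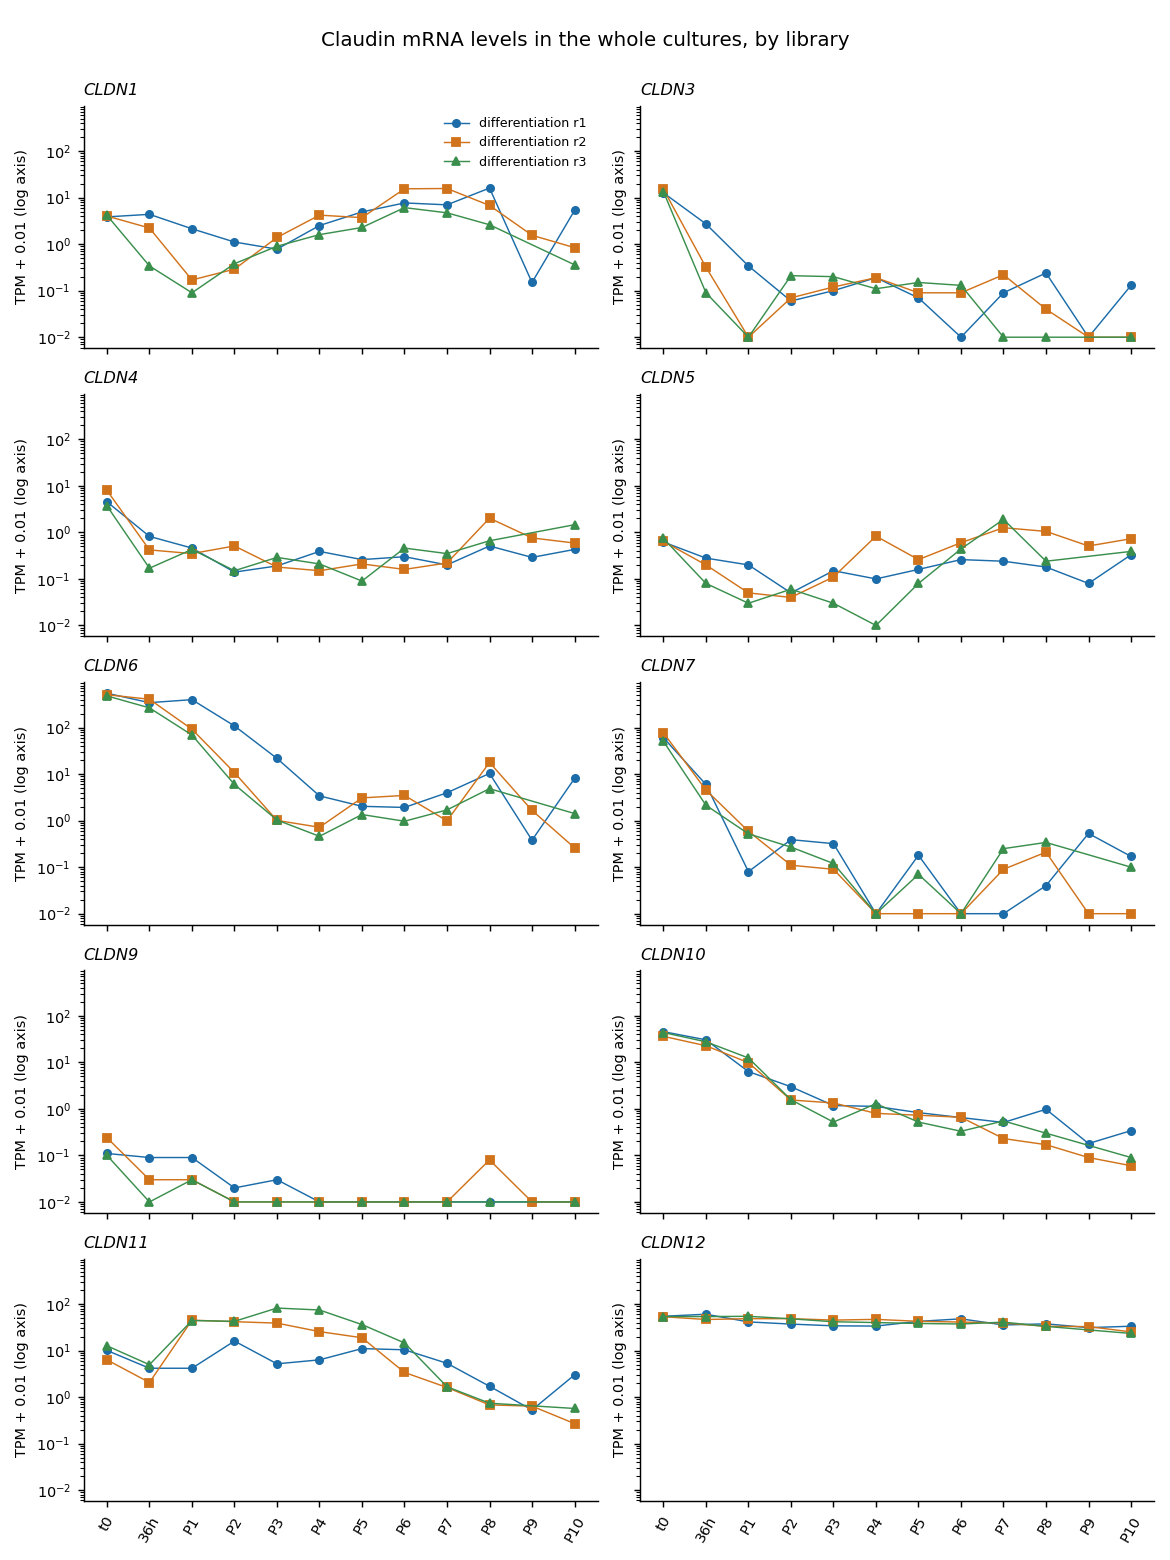
TPM of each claudin (with 0.01 added, log axis) in every whole-culture library from t0 to P10, with 1 line per differentiation; r3 has no P9 point. *CLDN6*, *CLDN7*, *CLDN3* and *CLDN10* started high and fell, *CLDN11* was highest between P1 and P5, the mean of *CLDN1* was lowest at P2 and highest at P6, and *CLDN12* stayed between 23.3 and 60.4 TPM.

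In the step from t0 to NMP-like cells, 3 sealing claudins of simple epithelia fell and the most abundant claudin did not pass the test. A gene was called when its adjusted p (edgeR quasi-likelihood test, Benjamini-Hochberg over all genes tested) was under 1%, its change at least 2-fold and its mean, over the libraries of the comparison, at least 100 normalized counts. Of the 9 claudins tested, 3 were called lower and 0 higher at 36 h, in a comparison where 2.71% of all genes were called in either direction.

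*CLDN7*, a claudin of simple epithelia that also binds EPCAM, was at 60.4, 77.0 and 50.4 TPM at t0 in r1, r2 and r3 and at 5.98, 4.54 and 2.13 TPM at 36 h. The groups did not overlap, and each 36 h library was at 4.23 to 9.90% of its own t0 level. The log2 fold change was -4.16 (SE 0.78, adjusted p = 0.0015, edgeR). *CLDN3*, which with *CLDN4* serves as a receptor for the enterotoxin of *Clostridium perfringens*, went from 12.7, 15.2 and 13.4 TPM to 2.71, 0.31 and 0.080 TPM. All 3 libraries were lower, but the remaining level differed widely, with 65 counts in r1, 9 in r2 and 3, the smallest the depth can show, in r3. The log2 fold change of *CLDN3* was -4.39 (SE 1.03, adjusted p = 0.0063, edgeR). *CLDN4*, its neighbour on chromosome 7 and a barrier-forming claudin of many epithelia, went from 4.53, 7.98 and 3.70 TPM to 0.81, 0.41 and 0.16 TPM, again without overlap. For *CLDN4* the log2 fold change came to -3.40 (SE 0.67, adjusted p = 0.0014, edgeR).

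*CLDN6*, a claudin of embryonic epithelia and pluripotent cells, was at 546, 508 and 479 TPM at t0 and at 343, 406 and 265 TPM at 36 h. These groups did not overlap either, but the difference was small against the spread of the fit (log2 fold change -0.63, SE 0.84, adjusted p = 0.70, edgeR). *CLDN10*, which forms ion-selective paracellular channels, was at 45.6, 36.2 and 43.6 TPM and then at 30.4, 22.7 and 27.6 TPM (log2 fold change -0.64, SE 0.39, adjusted p = 0.32, edgeR). *CLDN12*, an atypical claudin that lacks the C-terminal motif by which most claudins bind ZO scaffolds, differed by -0.06 on the log2 scale (SE 0.14, adjusted p = 0.84, edgeR), an interval of 2 SE from -0.34 to 0.22. *CLDN1*, *CLDN5* and *CLDN11* were lower on average, with log2 fold changes of -1.50, -2.02 and -1.45, and did not pass.

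Without r2, or without r3, no claudin was called at 36 h, while without r1 all 3 were. Without the differentiation as a block the adjusted p of *CLDN3* was 0.019 and its call was lost. The summed TPM of 10 epithelial identity genes, which include *CDH1*, *EPCAM* and *GRHL2*, was 561 to 702 at t0 and 109 to 305 at 36 h, and that of the 5 pluripotency genes was 1567 to 3339 at 36 h. Their part in the claudin differences was not tested.

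**Figure D3:**
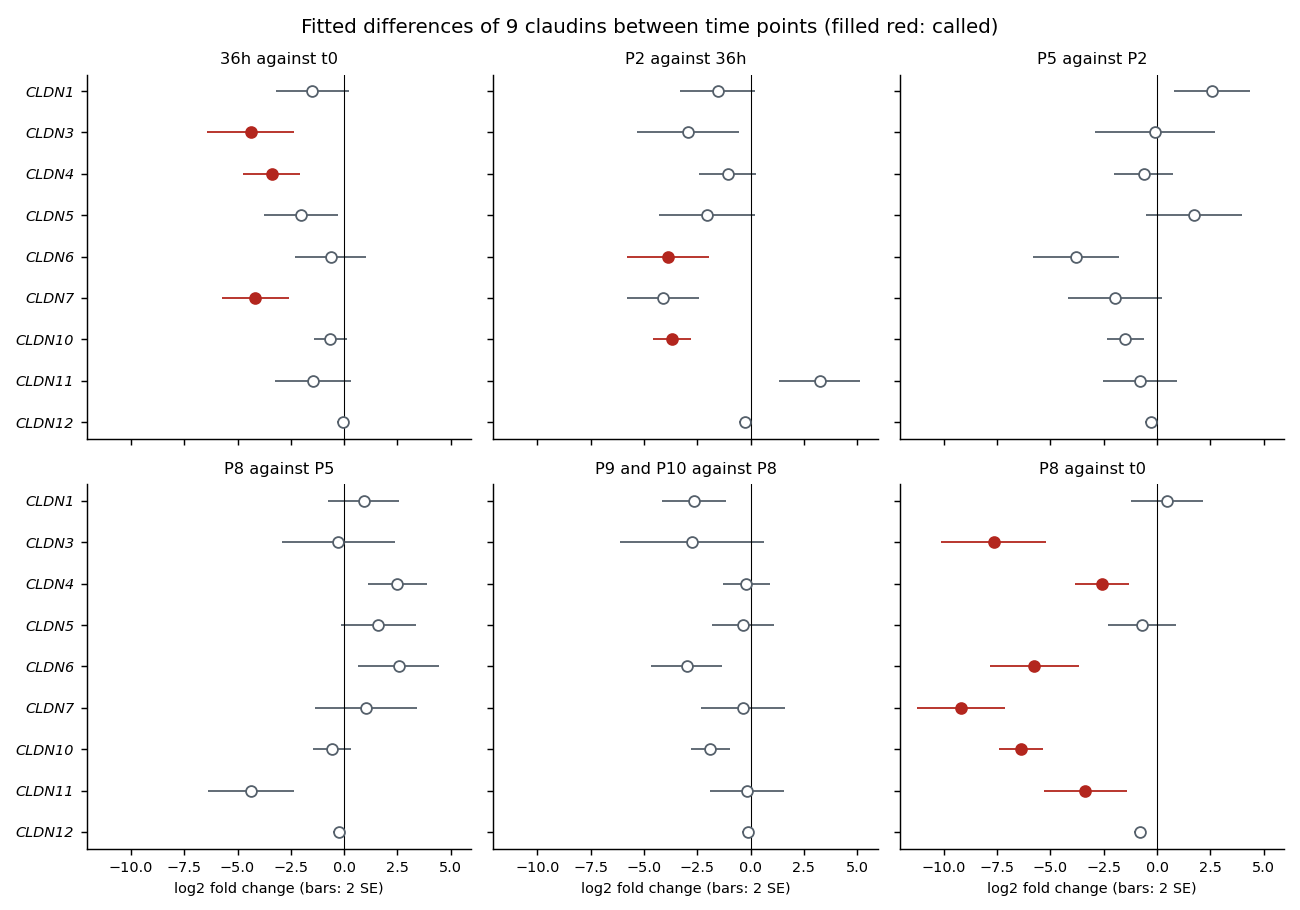
Fitted log2 fold changes of the 9 claudins that were tested in 6 comparisons of whole cultures, with bars of 2 standard errors; filled red points were called and open points were not. The called points are *CLDN3*, *CLDN4* and *CLDN7* at 36 h, *CLDN6* and *CLDN10* at P2, and 6 claudins for P8 against t0, all to the left of 0.

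From NMP-like cells to P2, the pluripotent-cell claudin and the channel-forming claudin fell, while *CLDN11* was higher in every differentiation without passing the edgeR test. Of 9 claudins tested, 2 were called lower and 0 higher, against 5.5% of all genes called; DESeq2 called 2 lower and 1, *CLDN11*, higher. *CLDN10* was at 2.98, 1.54 and 1.56 TPM at P2, below each of the 36 h libraries (log2 fold change -3.70, SE 0.44, adjusted p = 6.2e-06, edgeR). *CLDN6* was at 108, 10.8 and 5.97 TPM at P2. All 3 were below the lowest 36 h library, and r1 was well above r2 and r3. The log2 fold change was -3.87 (SE 0.96, adjusted p = 0.0050, edgeR). *CLDN7* was lower still, at 0.38, 0.10 and 0.26 TPM (log2 fold change -4.11, SE 0.85, adjusted p = 0.0017, edgeR), but its mean of 62.3 normalized counts was under the minimum for a call. Without r2, or without r3, *CLDN10* was the only claudin called, and without the differentiation as a block the adjusted p of *CLDN6* was 0.062 (log2 fold change -2.96). Without r1 at P1 to P4 and P10 the log2 fold change of *CLDN6* was -5.36 (adjusted p = 2.6e-06, edgeR) and that of *CLDN10* was -3.89.

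The differentiations lost *CLDN6* at different passages. Under 10% of the level of its own t0 library was reached at P2 in r2 and r3 and at P3 in r1. At P1 the r1 library still held 398 TPM, 72.8% of its t0 level, against 92.0 and 69.1 TPM, 18.1% and 14.4%, in r2 and r3. *POU5F1* differed between the differentiations in the same libraries, with 863 TPM in r1 and 18.7 and 5.07 TPM in r2 and r3 at P1. *CLDN10* did not show this lag: at P1 it was at 6.32 TPM in r1, below the 9.83 and 12.4 TPM of r2 and r3, and it was under 10% of t0 at P2 in all 3 differentiations. *CLDN7* was under 10% at 36 h in all 3, and *CLDN3* and *CLDN4* at 36 h in r2 and r3 and at P1 in r1. *CLDN12* never went under 10% in any differentiation.

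**Figure D4:**
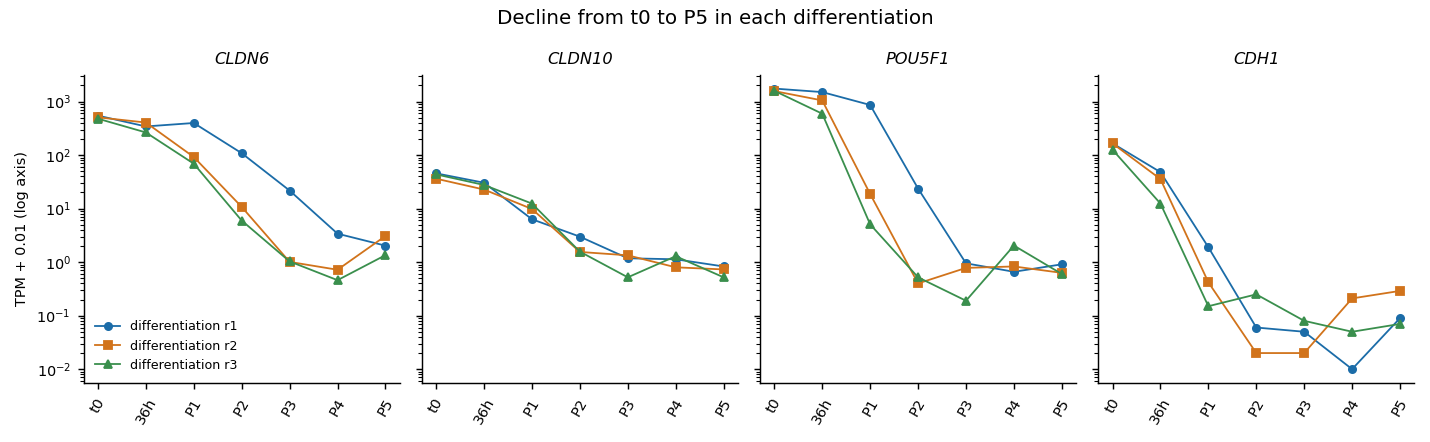
TPM (with 0.01 added, log axis) of *CLDN6*, *CLDN10*, the pluripotency gene *POU5F1* and E-cadherin (*CDH1*) from t0 to P5 in the whole cultures, with 1 line per differentiation. At P1 the r1 library was at 398 TPM for *CLDN6* and 863 TPM for *POU5F1*, above r2 and r3, while *CLDN10* was at 6.32 TPM in r1, below both.

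*CLDN11*, a strand-forming claudin of oligodendrocyte myelin and of Sertoli cells, took the other course. It was at 10.1, 6.31 and 12.7 TPM at t0 and at 4.16, 2.05 and 4.96 TPM at 36 h. At P1 it was at 4.16 TPM in r1 and at 45.0 and 44.2 TPM in r2 and r3, so r1 was level with its 36 h value while the others were above theirs. At P2 the values were 16, 41.8 and 42.5 TPM, above every 36 h library. The log2 fold change from 36 h to P2 was 3.26 (SE 0.95, adjusted p = 0.014, edgeR), outside the 1% threshold. *CLDN11* was called higher with DESeq2 (adjusted p = 0.0017), with all 47 libraries in the edgeR fit (0.0064), at an FDR of 5% and without r1 (8.5e-05), and also without the libraries of r1 at P1, P4 and P10 (log2 fold change 3.28, adjusted p = 0.0014), each of which brought the claudins called to 3. It was not called without r2 (adjusted p = 0.27, edgeR) or without r3 (0.13). The highest level of the series was 81.9 TPM at P3 in r3, where r1 was at 5.18 and r2 at 38.9 TPM.

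The summed TPM of 4 paraxial mesoderm genes (*TBX6*, *MSGN1*, *MEOX1* and *TCF15*) was 7.11 to 9.45 at t0, 8.81 to 631 at 36 h, 7.57 to 363 at P1, 67.0 to 305 at P2 and 12.8 to 233 at P3, and it was back at 2.56 to 3.79 at P5, where *CLDN11* was at 11, 18.9 and 36.2 TPM. At 36 h the sum was highest in r3 and at P1 *TBX6* was lowest in r1, at 2.92 TPM against 193 and 245 TPM in r2 and r3; *CLDN11* was highest and lowest in these same libraries. At P2 and P3 the sum was highest in r1, where *CLDN11* was lowest. At P2 that sum was mostly *TBX6* and *MSGN1*, while *MEOX1* (0.26, 16.9 and 43.9 TPM) and *TCF15* (1.27, 14.5 and 18.4 TPM) were lowest in r1, like *CLDN11*. At P3 *MEOX1* (47.0, 1.79 and 1.69 TPM) and *TCF15* (28.4, 2.39 and 1.92 TPM) were highest in r1, unlike *CLDN11*. The oligodendrocyte gene *MBP* was at 0.13 to 0.26 TPM at P2. The part of these cell types in the *CLDN11* levels was not tested.

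Between P2 and P5 and between P5 and P8 no claudin was called. The edgeR test called 0 of 9 for P5 against P2, where 1.37% of all genes were called and 5109 of 21750 had an unadjusted p under 0.05, and DESeq2 called 1, *CLDN6*. *CLDN6* was at 2.02, 3.07 and 1.34 TPM at P5, below each P2 library (log2 fold change -3.80, SE 1.01, adjusted p = 0.021, edgeR). Without r1 at P1 to P4 and P10 the difference was smaller, at -2.18, and passed (adjusted p = 0.0080, edgeR). With r1 left out at every time point, 0 claudins were called lower, so *CLDN6* did not pass. At P4 it had been at 3.39, 0.71 and 0.45 TPM, the lowest mean before P9. *CLDN1*, a sealing claudin of the epidermal barrier, was at 1.1, 0.28 and 0.37 TPM at P2 and at 4.91, 3.70 and 2.27 TPM at P5. The groups did not overlap, but the change missed the threshold (log2 fold change 2.59, SE 0.90, adjusted p = 0.075, edgeR), although without r1 it was called, with an adjusted p of 0.0044. The mean of *CLDN1* was highest at P6, where it was at 7.67, 15.5 and 6.08 TPM, each above the 3.84, 4.01 and 4.14 TPM of t0. Of 4 epidermal genes (*TP63*, *KRT5*, *KRT14* and *KRT15*), all 4 were under 1 TPM on average at P6, and their sum was 0.46 to 1.02 TPM.

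For P8 against P5, 0.0092% of all genes were called, 2 of 21750, and 0 of 9 claudins. Before adjustment 2892 genes had p under 0.05, and DESeq2 called 155 genes and 1 claudin, *CLDN11*. *CLDN11* went from 11, 18.9 and 36.2 TPM at P5 to 1.7, 0.67 and 0.73 TPM at P8, with every P8 library below every P5 library (log2 fold change -4.37, SE 1.02, adjusted p = 0.061, edgeR). The passages between lay at 10.4, 3.38 and 14.6 TPM (P6) and at 5.32, 1.60 and 1.66 TPM (P7). Without r1, and without r1 at P1 to P4 and P10 alone, the edgeR test called *CLDN11* here. *CLDN6* was higher again at P8, at 10.3, 17.8 and 4.85 TPM, each above every P5 library (log2 fold change 2.55, SE 0.96, adjusted p = 0.23, edgeR). *CLDN4* was at 0.25, 0.20 and 0.080 TPM at P5 and 0.50, 2.01 and 0.65 TPM at P8 (log2 fold change 2.51, SE 0.69, adjusted p = 0.097, edgeR). None of these P8 values came near the t0 level: *CLDN6* was at 1.01 to 3.51% and *CLDN4* at 11 to 25.2% of t0. *POU5F1* was at 0.21 TPM in r1 and listed at 0 in r2 and r3 at P8.

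At P9 and P10, 1.25% of all genes were called against P8 and 0 of 9 claudins; 5708 genes had an unadjusted p under 0.05, and DESeq2 called 2 claudins, *CLDN1* and *CLDN6*. *CLDN1* was at 16, 6.78 and 2.60 TPM at P8, at 0.14 and 1.54 TPM at P9 and at 5.28, 0.83 and 0.35 TPM at P10. Only the P10 library of r1 was within the P8 range. The log2 fold change was -2.66 (SE 0.75, adjusted p = 0.027, edgeR), and without the libraries of r1 at P1, P4 and P10 it was -3.46 with an adjusted p of 0.00069, which passed. *CLDN6* was at 0.37 and 1.65 TPM at P9 and at 8.04, 0.25 and 1.41 TPM at P10 (log2 fold change -2.99, SE 0.83, adjusted p = 0.025, edgeR), with r1 at P10 again the only library within the P8 range. Without those r1 libraries it was -3.50 with an adjusted p of 0.0082, so that 2 claudins were then called in place of 0. *CLDN10*, at 0.97, 0.16 and 0.29 TPM at P8 and at most 0.33 TPM in a P9 or P10 library, differed by -1.89 (SE 0.45, adjusted p = 0.012, edgeR) at a mean of only 7.90 normalized counts. The 7 epithelial PNP genes summed to 34.4 to 38.4 TPM at P9 and 16.3 to 458 TPM at P10, against 203 to 790 TPM at P8, and the NC genes to 961 to 1042 TPM at P9 and 189 to 909 TPM at P10, against 111 to 675 TPM at P8. Their part in the *CLDN1* and *CLDN6* differences was not tested.

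Over the whole course, P8 against t0, 6 of 9 claudins were called lower and 0 higher, in a comparison with 15.4% of all genes called. *CLDN7* was at 0.030, 0.20 and 0.33 TPM at P8 (log2 fold change -9.19, SE 1.03, adjusted p = 5.5e-07, edgeR), which is 1 to 5 counts per library. *CLDN3* was at 0.23, 0.030 and 0 TPM, or 9, 1 and 0 counts (log2 fold change -7.66, SE 1.23, adjusted p = 2.3e-05, edgeR). With so few counts these fitted values depend on the fit more than those of the abundant genes. *CLDN10* (log2 fold change -6.39, SE 0.51), *CLDN6* (-5.76, SE 1.04), *CLDN11* (-3.36, SE 0.97) and *CLDN4* (-2.60, SE 0.63) were called too, with adjusted p (edgeR) of 1.1e-09, 7.7e-05, 0.0061 and 0.0016. *CLDN12* had a log2 fold change of -0.82 (SE 0.14, adjusted p = 4.5e-05, edgeR), from 54.6, 53.4 and 54.0 TPM to 37.6, 33.2 and 33.1 TPM, without overlap but by less than 2-fold. *CLDN1* (0.47, SE 0.84) and *CLDN5* (-0.72, SE 0.80) did not pass. The calls of *CLDN4*, *CLDN6* and *CLDN11* were lost without 1 of the differentiations: that of *CLDN4* without r1 or r2, that of *CLDN11* without r2 or r3 and that of *CLDN6* without r3.

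The fractions of P5 and P8 gave the comparison between the epithelial PNP and mesenchymal NC sides of the culture. No claudin was called. Of 7 claudins tested at P5 the edgeR test called 0, where 0% of the 18885 genes were called and 4894 had an unadjusted p under 0.05; DESeq2 called 674 genes and 1 claudin, *CLDN1*. *CLDN1* was at 5.49, 5.11 and 2.92 TPM in the P5 EPI samples and at 1.93, 1.64 and 0.90 TPM in the P5 MES samples of r1, r2 and r3. By normalized counts it was higher in EPI in 3 of 3 differentiations, 2.80, 2.87 and 3.74 times, and the groups did not overlap. The log2 fold change of MES against EPI was -1.67 (SE 0.40, adjusted p = 0.043, edgeR). *CLDN11* was higher in MES in 3 of 3 differentiations, at 4.12, 17.8 and 31.3 TPM in EPI and 32.3, 28.8 and 44.7 TPM in MES, but by normalized counts the difference ranged from 8.03 times in r1 to 1.43 times in r3 (log2 fold change 1.07, SE 0.65, adjusted p = 0.34, edgeR). *CLDN12* did not separate the fractions at P5, with a difference of -0.04 and an interval of 2 SE from -0.16 to 0.08. *CLDN6* was at 0.55 to 3.69 TPM in MES and 1.77 to 2.74 TPM in EPI at P5.

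At P8 the edgeR test called 0 of 7 claudins and 0% of all genes, with 2261 genes at an unadjusted p under 0.05, and DESeq2 called 55 genes and 0 claudins. *CLDN1* was again higher in EPI in 3 of 3 differentiations, at 16.8, 7.60 and 3.12 TPM against 12.4, 4.38 and 1.07 TPM, but the differentiations differed from each other by more than the fractions did (log2 fold change -0.82, SE 0.38, adjusted p = 0.44, edgeR). *CLDN11* was at 2.69 TPM or less in every P8 fraction. *CLDN6* was at 7.67, 17.8 and 1.62 TPM in EPI and 15.5, 18.6 and 0.84 TPM in MES, with no common direction. The test of whether the difference between fractions changed from P5 to P8 called 0 of 7 claudins and 0% of genes, with 1152 genes at an unadjusted p under 0.05 and 1 gene and 0 claudins called by DESeq2. For *CLDN1* that change was 0.85 on the log2 scale (SE 0.55, interval of 2 SE from -0.25 to 1.94, adjusted p = 0.85, edgeR). Epithelial identity genes were low in both fractions, with sums of 5.12 to 7.61 TPM in EPI and 1.63 to 4.04 TPM in MES at P5 and of 5.87 to 11.9 and 5.30 to 8.45 TPM at P8, and *CDH1* did not exceed 1.08 TPM in any fraction.

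**Figure D5:**
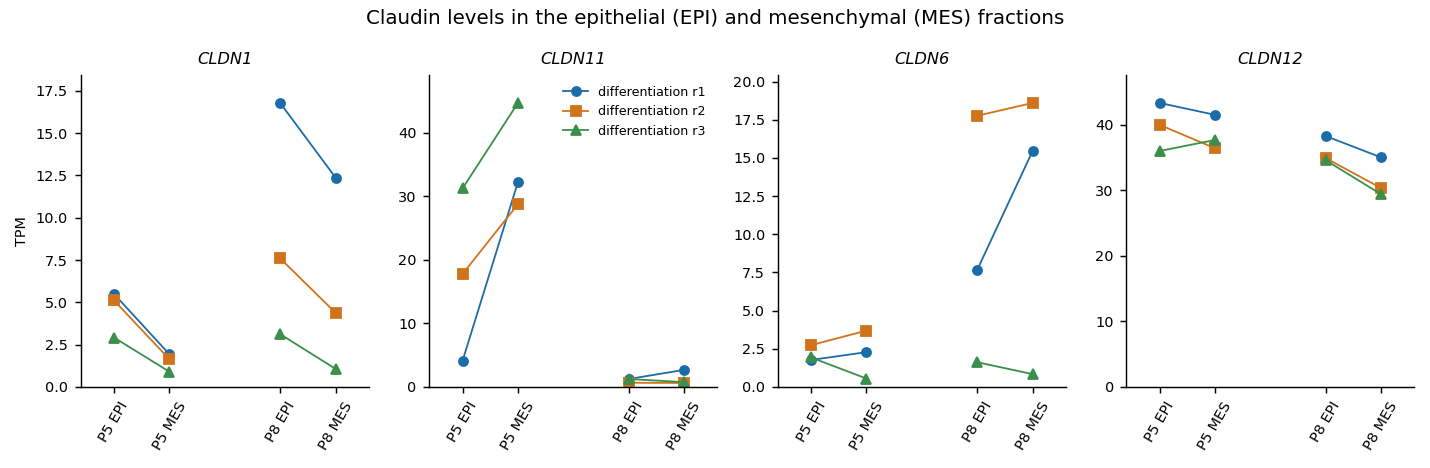
TPM of *CLDN1*, *CLDN11*, *CLDN6* and *CLDN12* in the epithelial (EPI) and mesenchymal (MES) samples of P5 and P8, with each line joining the 2 fractions of a differentiation; the axes start at 0. *CLDN1* was lower in MES in all 6 pairs, *CLDN11* was higher in MES in all 3 pairs at P5 and at most 2.69 TPM at P8, and *CLDN12* lay between 29.4 and 43.3 TPM.

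Both remaining claudins were at low levels, and *CLDN9* was near the limit of detection. *CLDN5*, the main claudin of brain endothelium, was at 0.61, 0.63 and 0.73 TPM at t0, at 0.030 to 0.050 TPM at P2 and reached 1.89 TPM at most, in r3 at P7. A list of 6 endothelial genes (*PECAM1*, *CDH5*, *TEK*, *VWF*, *ERG* and *TIE1*) summed to 3.75 to 3.85 TPM at P7 and to 8.56 to 13.4 TPM at t0. At P7, 3 of the 6 were under 1 TPM in every library, among them the defining genes *PECAM1*, at 0.020 to 0.070 TPM, and *CDH5*, at 0 to 0.11 TPM. In r2 *PECAM1* was at 3.98 TPM at P9 and 7.05 TPM at P10, where *CLDN5* was at 0.50 and 0.72 TPM. *CDH5* was at 0.040 and 0.030 TPM in these libraries. The part of the 6 endothelial genes in the *CLDN5* levels was not tested. *CLDN9* never exceeded 0.23 TPM, had at most 3 counts in 42 of 47 libraries and was at 0 in 33 of them. It had 5, 12 and 6 counts at t0, and it was left out of the tests by the filter on low counts. Its neighbour *CLDN6* was, at t0, at 479 to 546 TPM.

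The other components of the tight junction fell alongside in part. Of 21 genes for tight junction partners, all tested in the whole cultures, 4 were called lower at 36 h, 4 lower at P2 against 36 h, and 12 lower and 1 higher at P8 against t0, beside 2.71%, 5.5% and 15.4% of all genes called in either direction. In the remaining comparisons of whole cultures 0 were called in either direction, as were 0 of the 18 that could be tested in the fractions. At 36 h the called genes with the largest changes were *CRB3* and *CGNL1*. *CRB3*, an apical polarity protein, went from 11.5 to 15.8 TPM at t0 to 0.14 to 2.48 TPM (log2 fold change -3.83, SE 0.77). *CGNL1*, a junctional adaptor of the cingulin family, changed by -2.63 (SE 0.60). At P2 the called genes with the largest changes were *MARVELD2* and *F11R*. The tricellular junction protein gene *MARVELD2* went from 8.96 to 19.6 TPM at 36 h to 0.28 to 1.33 TPM (-4.96, SE 0.83). *F11R*, which encodes the adhesion molecule JAM-A, went from 95.0 to 118 TPM to 3.43 to 14.8 TPM (-4.10, SE 0.65). For P8 against t0 the called genes with the largest changes were *MARVELD3* and *CRB3*. *MARVELD3* went from 18.2 to 23.7 TPM to at most 0.030 TPM, and *CRB3* to at most 0.060 TPM. *OCLN*, which encodes occludin, was at 38.8 to 41.9 TPM at t0, 2.11 to 3.37 TPM at P2 and 6.86 to 13.6 TPM at P8, and was called lower at P2 and at P8. The scaffold gene *TJP1* (ZO-1) was called in no comparison and stayed between 42.2 and 75.1 TPM. The 1 gene called higher was *JAM2*, from 8.91 to 10.4 TPM at t0 to 36.1 to 38.5 TPM at P8 (2.09, SE 0.50); *OCLN*, *TJP1* and *JAM2* were chosen after their values were seen. The median log2 fold change of the 21 genes for P8 against t0 was -1.59 and that of the 9 claudins was -3.36, beside 0.02 for all genes tested.

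Of the 14 other claudin genes, 10 were under 1 TPM in every library and 5 were tested in the whole cultures. *CLDN15*, a pore-forming claudin, was called higher at P2 against 36 h (log2 fold change 1.17, SE 0.22) and at P8 against t0 (1.60, SE 0.23), from 1.93 to 2.16 TPM at t0 to 4.59 to 8.08 TPM at P8. *CLDN19* was called lower at P5 against P2 (-2.70, SE 0.56) and at P8 against t0 (-4.29, SE 0.59), from 6.83 to 8.14 TPM at t0 to 0.26 to 0.74 TPM at P8. *CLDN23* was called lower at P2 against 36 h (-3.21, SE 0.80). At P8, *CLDN12*, *CLDN6*, *CLDN1* and *CLDN15* were the only claudins measured with a whole-culture library above 5 TPM.

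The genes whose pattern was most like that of a claudin were found from Pearson's r of mean log2(TPM + 1) over the 16 conditions, among 18727 genes with a condition mean of at least 1 TPM. The conditions share libraries of the same differentiations, so r is a description. *CLDN10* was most like *POU5F1* (r = 0.993), with *LINC01234* also among the nearest. *CLDN7* was most like *B3GNT3* (r = 0.999), *CLDN3* like *OLIG1* (r = 0.998) and *CLDN6* like *CDC42BPG* (r = 0.984) and *FGFR4* (r = 0.984). For *CLDN4* it was *MMP24* (r = 0.967), for *CLDN1* *SHD* (r = 0.972), for *CLDN11* *PDGFD* (r = 0.944) and for *CLDN12* *NUDT12* (r = 0.971). *CLDN7*, *CLDN3* and *CLDN4* were highest at t0, with medians of 0.10, 0.09 and 0.34 TPM over all libraries. Their r is therefore set largely by t0, and many genes confined to t0 would score high. Among the claudins themselves *CLDN3* and *CLDN7* had the highest r (0.977), also set largely by t0, then *CLDN6* and *CLDN10* (r = 0.945).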

How the data were processed

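Poly(A) RNA of 47 libraries was sequenced as 75-base single-end reads, and no molecular identifiers are described, so the floor of 3 counts reflects counting error alone. Per the labels, the submitters' processing notes name cutadapt 1.16, STAR 2.5.2b, RSEM 1.3.0 and GRCh38; the annotation release and the strand setting are not given in the sources used here. The authors deposited, for each library and gene, RSEM expected counts, in which reads that fit several genes are divided between them (9.33% of values were not whole), and TPM, which RSEM scales for effective length and to a constant total. Replicates were not pooled.

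Of the 58051 genes, 57447 were matched to a GENCODE 29 symbol and 604 were not. Expected counts were rounded and tested with edgeR 4.0.16 (glmQLFit, glmQLFTest, TMM factors, filterByExpr, limma 3.58.1, R 4.3.3), in a fit of the 35 whole cultures and another of the 12 fractions, each with the differentiation as a block. Time points shared an estimate of the spread, since a pair of time points with the block leaves few degrees of freedom. P-values measure the spread between differentiations of 1 cell line, pooled over all groups of a fit and not over the compared libraries alone. Normalized counts are TMM-scaled counts. The fits were tested on simulated data.

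The block rests on the series' design, which describes 3 experiments that each comprised the 12 time points; that r1 to r3 number those experiments alike at every time point is assumed, not stated. Deviations of same-numbered libraries from their group means correlated at 0.088 on average over 187 pairs of the time course (lowest -0.147), against -0.044 for 374 pairs of different numbers, and at 0.313 over 18 pairs of the fractions (lowest 0.055), against -0.155 for 36. No pair of replicates agreed within sampling noise (chi-square per degree of freedom of at least 25.4).

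All 10 claudins were named. Of 21 tight junction partners and 14 other claudins, those called with the 2 largest changes in a comparison were named, and, for each claudin with a condition mean of at least 5 TPM, the most correlated genes. A few items are not reported here. The members and all gene lists were chosen with earlier results of these data known. Alternatives were no block, DESeq2 1.42.0, DESeq2 size factors, no count filter, all 47 or only the compared libraries, an FDR of 5%, no minimum mean, each differentiation left out and, chosen after seeing the data, leaving out r1 at P1, P4 and P10, or at P1 to P4 and P10. Tables were handled with Python 3.11.15, pandas 2.3.3 and numpy 2.4.6.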

Additional observations from a re-analysis of the deposited data

How the results depend on the processing

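Of 457 alternative values of the 36 single-claudin differences, 409 kept both direction and side of the thresholds, 28 passed where the reported fit did not, 19 no longer passed and 1 changed sign: *CLDN1* at P8 against t0, from -0.19 without replicate 1 to 1.42 without replicate 3 on the log2 scale. In edgeR without the replicate block, the claudins called were 1 at P2 against 36 h, and all genes called were 0 at P8 against P5 and 37 at P9 and P10 against P8; the block changed no count of claudins beyond 1.5 times elsewhere. With only the compared libraries in the fit, fewer samples gave 1 claudin and 168 genes at 36 h, 0 and 0 at P2, 1 gene at P5, 0 at P8 and 0 at P9 and P10. With all 47 libraries the counts were 1 claudin and 497 genes at P5 against P2, 1 and 508 at P9 and P10 against P8, and 13 genes between the P5 fractions. DESeq2 called 1 claudin and 696 genes at P5 against P2, 1 and 155 at P8 against P5, 2 and 740 at P9 and P10, 1 and 674 between the P5 fractions, 55 genes between the P8 fractions and 1 gene for the interaction. At an FDR of 5% there were 964 genes at 36 h, 1 claudin and 717 genes at P5 against P2, 39 genes at P8 against P5, 2 and 786 at P9 and P10, and 1 and 503 between the P5 fractions. Without a minimum mean, 1861 genes were called at P2 and 5430 at P8 against t0, and without the count filter 82 between the P5 fractions. Without r1 at P1, P4 and P10, chosen after seeing the data, there were 546 genes at P5 against P2, 4 at P8 against P5, and 2 claudins and 1111 genes at P9 and P10. With r1 at P2 and P3 left out too, also chosen after seeing the data, there were 943 genes at 36 h, 1971 genes at P2, 1 claudin and 797 genes at P5 against P2, 1 and 57 at P8 against P5, and 2 and 1256 at P9 and P10. With each differentiation left out in turn, claudins called ranged from 0 to 3 at 36 h, 1 to 3 at P2, 0 to 1 at P5 against P2, 0 to 1 at P8 against P5, 0 to 2 at P9 and P10 and 4 to 5 at P8 against t0, and genes from 83 to 891, 69 to 1964, 2 to 804, 0 to 100, 0 to 928 and 2102 to 3732. In each, the highest count came without r1 (P8 against t0: 5 claudins, 3732 genes). Apart from the settings said to use fewer samples, the cause was not tested. Of the 24 genes most like a claudin, 11 were shared with log2(TPM + 0.1) and 19 without the floor on TPM, so that list depends on the offset. Depth limits *CLDN3*, *CLDN7* and *CLDN9*, with at most 3 counts in 27, 30 and 42 of 47 libraries.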
